A study of Mus musculus with 60 samples.

Results

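Collagen genes were followed in liver RNA of mice given 2,3,7,8-tetrachlorodibenzo-p-dioxin (TCDD), the most potent of the dioxins and a ligand of the aryl hydrocarbon receptor (AHR). The members were chosen by symbol, as every gene on the array named Col, a number, a and a number, and 44 of the 21115 features met that rule. Each feature is one Entrez gene, so each member has a single value per array. All 44 are listed as mouse collagen genes in RefSeq. The rule used no measured value, although it was set with earlier results of these data known.

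The animals came from 3 transgenic lines on the C57BL/6J background, each carrying a different AHR variant, named INS, DEL and rWT. How the variants differ from one another, and what drives the transgene, could not be read from the labels and notes at hand. All mice were labelled male and aged 12 to 15 weeks, were housed individually, received a single dose by oral gavage and were killed 96 h (4 days) later. The TCDD doses were 125, 250, 500 and 1000 µg/kg, and control mice received corn oil at 10 mL/kg. INS had 4, 4, 4 and 5 mice at those doses and 5 on corn oil. DEL had 4, 4, 4 and 4 mice and 5 on corn oil. rWT had 3, 3, 4 and 2 mice and 5 on corn oil. That makes 60 arrays in 15 groups, with 1 animal per array.

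Collagens are triple helical proteins of the extracellular matrix. Fibrillar collagens (types I, II, III, V, XI, XXIV and XXVII) form or regulate banded fibrils. Type IV forms the mesh of basement membranes, type VI forms beaded microfibrils around cells, and the FACIT collagens sit on the surface of fibrils. In liver, stellate cells and portal fibroblasts are the main source of fibril-forming collagen, and scar tissue is rich in types I and III. Type XVIII, which carries endostatin at its C-terminal end, is made by hepatocytes as well as by cells of the vessel walls.

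Values were log2 intensities after robust multi-array averaging (RMA), so a difference of 1 is a factor of 2. Because probes differ in brightness, levels were compared between arrays for one gene and never between genes. The 60 arrays had medians of 5.22 to 5.38 in INS, 5.81 to 6.25 in DEL and 5.65 to 6.01 in rWT. Comparisons between lines therefore carry an offset. Medians also moved with treatment within lines, though less. In DEL they were 5.81 to 5.90 on corn oil and 5.92 to 6.25 after TCDD. In rWT they were 5.65 to 5.83 and 5.71 to 6.01, and in INS 5.22 to 5.34 and 5.22 to 5.38. Albumin, the main secreted protein of hepatocytes, lay between 13.4 and 13.7 on every array. Cyp1a1, the standard target of the activated receptor, separated treated from control arrays in each line. It read 11.70 to 12.71 after TCDD in INS against 6.88 to 7.94 on corn oil, 12.79 to 13.06 in DEL against 7.53 to 8.63, and 12.73 to 13.07 in rWT against 5.59 to 7.84. All mice were labelled male, but 4 rWT arrays read otherwise: corn oil replicates 3, 4 and 5, and replicate 4 at 500 µg/kg. Their Xist, the RNA of the inactive X chromosome, was 10.7 to 11.4 and their Eif2s3y, a Y-linked gene, was 2.73 to 3.37, against 2.41 to 3.44 and 8.15 to 9.72 on the other 56 arrays. The average rWT effects of the genes described in detail, and the rWT counts, are therefore given with and without these 4 arrays, and those of other genes where leaving them out ended a call or moved a called value by over 1.5 times.

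TCDD against corn oil was tested within each line as the average of the 4 dose means minus the corn oil mean, with limma over all features and a Benjamini-Hochberg adjusted p under 0.05 as the threshold. In DEL, 26 of 44 collagen genes passed, where 34.3% of all features did. Of these 13 rose and 13 fell, where 16.7% of all features rose and 17.6% fell. In rWT, 25 passed, where 40.7% of all features did. Of these 12 rose and 13 fell, where 20.3% of all features rose and 20.4% fell. In INS, 0 of 44 passed limma's threshold, where 0.568% of all features did. There 1 member had an unadjusted p under 0.05, where 7.5% of all features did. The median difference of the 44 members was -0.04 in INS, -0.12 in DEL and -0.17 in rWT, and that of all features was -0.01, -0.05 and -0.07. The members' middle thus lay near that of the array, while their extremes were far from it. The largest rises were fibrillar, led by Col1a1, Col1a2 and Col3a1, and the only fall beyond 0.52 in either line was that of Col18a1.

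The rise and the fall were unequal in size. The 13 members that rose in DEL gained 0.30 to 2.50, and 12 of the 13 that fell lost less than 0.5. In rWT the 12 that rose gained 0.46 to 2.63, and 11 of the 13 that fell lost less than 0.5. The small falls depended on the scaling. When each array was centred on its own median, the median of all features moved to -0.31 in DEL and -0.29 in rWT, and the split became 11 higher and 27 lower in DEL and 12 higher and 29 lower in rWT. No called TCDD effect of a member changed its direction under that or any other alternative. Some members that fell had low readings, such as Col6a4 at 2.92 to 3.21 on treated rWT arrays and 3.19 to 3.69 on corn oil. Whether such genes read above background was not tested. With features of a mean under 4 left out, 22 members passed in DEL and 23 in rWT, and after quantile scaling 25 and 24 did. The shares of all features under centring, this filter and quantile scaling are not given. Those counts therefore do not set the members apart from the array. Without the 4 rWT arrays, 12 members rose and 12 fell in rWT, where 16.9% of all features rose and 19.1% fell. Of the 25 calls made with them, 22 were shared. The samples are pieces of whole liver, in which more cells of a type and more RNA per cell cannot be told apart.

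**Figure D1:**
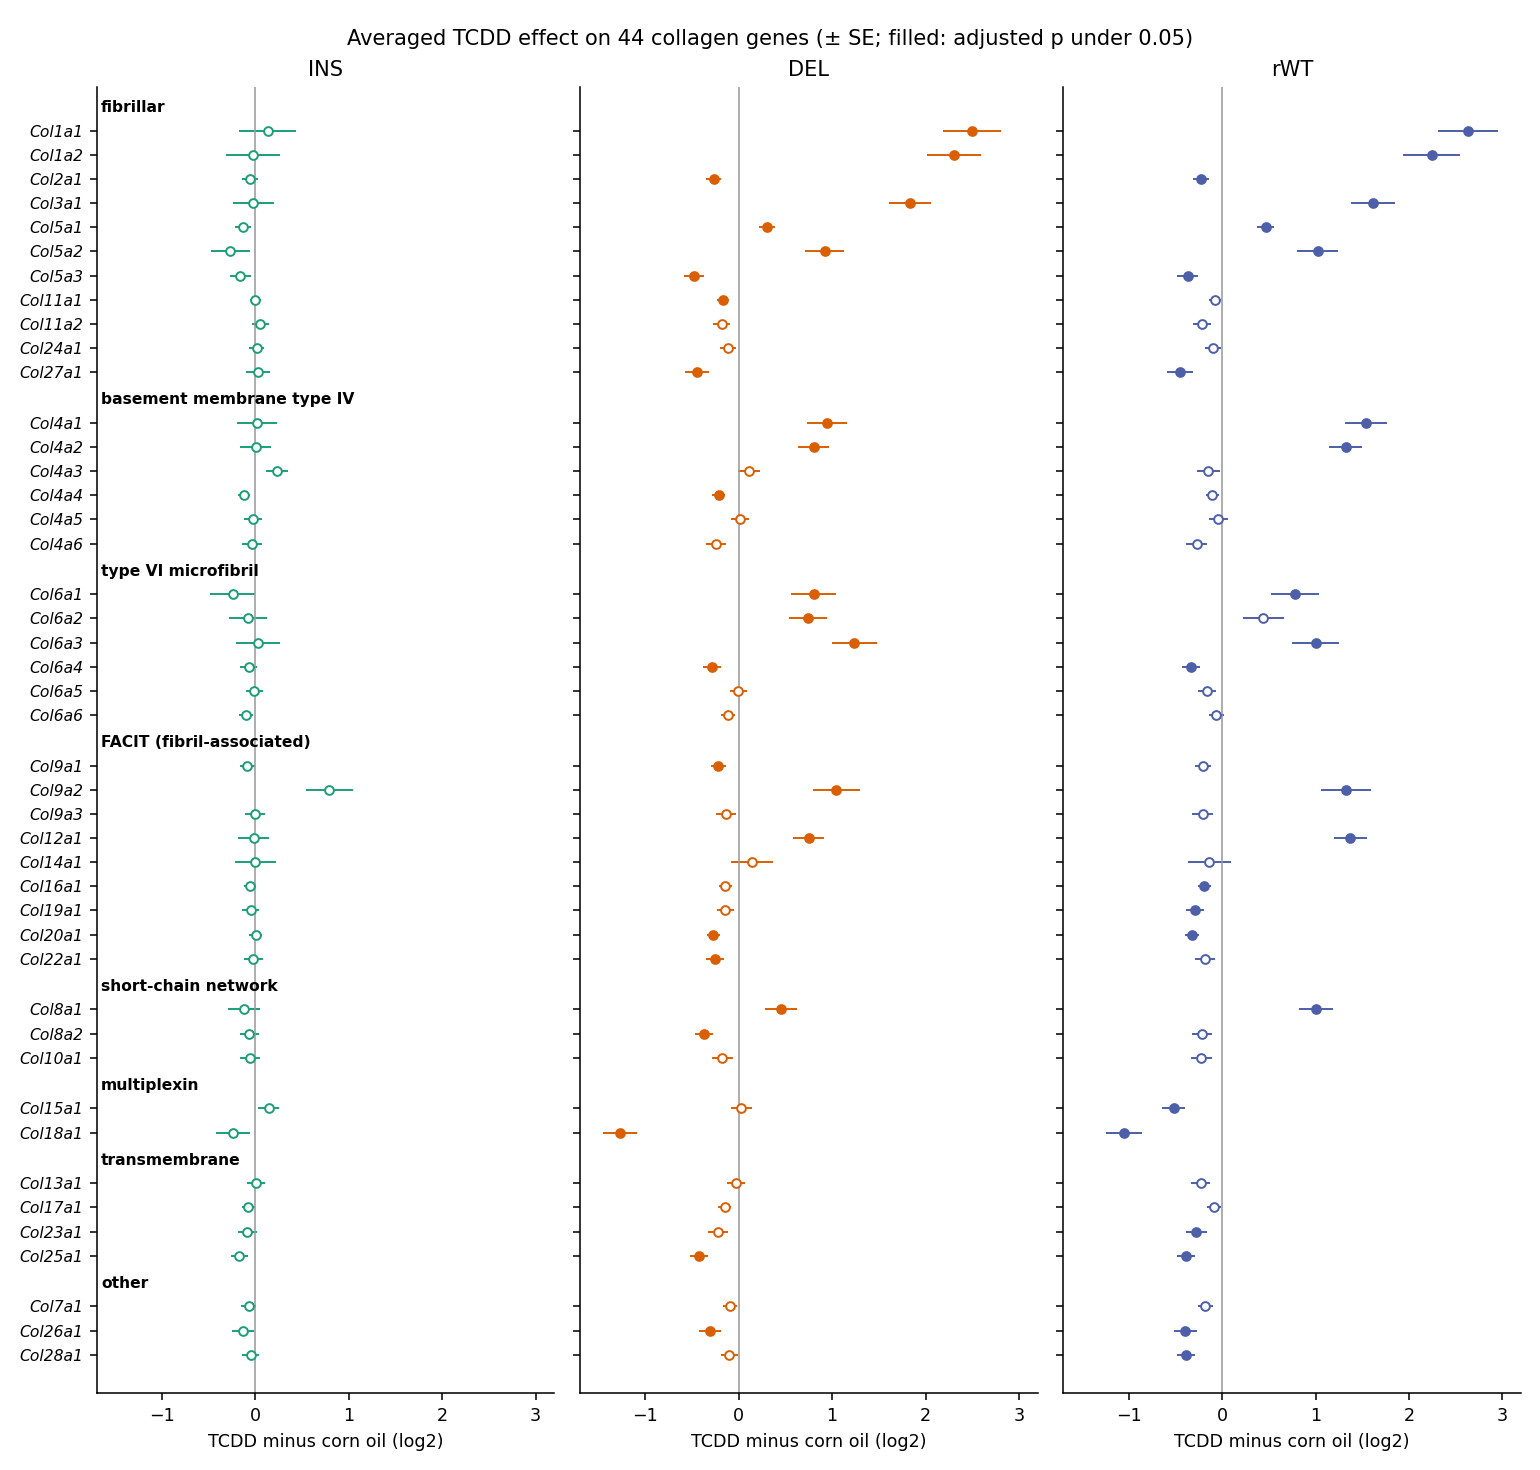
Average TCDD effect of each of the 44 collagen genes (horizontal axis, log2 TCDD minus corn oil, bars ± SE of the fit), grouped by collagen class down the page, in INS, DEL and rWT; filled points passed adjusted p under 0.05 in limma. In DEL and rWT the points run from -1.27 and -1.05 for Col18a1 to 2.50 and 2.63 for Col1a1, and no INS point is filled.

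Type I collagen, the main protein of scar and tendon, had the largest effects. Col1a1 (Entrez 12842) encodes its alpha 1 chain. In DEL it read 5.71, 5.56, 5.83, 5.94 and 6.52 on corn oil, then 6.72, 7.92, 9.17 and 8.28 at 125 µg/kg, 8.75, 8.90, 9.16 and 7.20 at 250 µg/kg, 9.26, 8.67, 7.81 and 8.52 at 500 µg/kg, and 8.27, 9.11, 8.64 and 8.18 at 1000 µg/kg. Every treated DEL array lay above every DEL corn oil array, with the 125 µg/kg group the widest. In rWT it read 5.39, 5.62, 6.11, 5.51 and 6.51 on corn oil, then 8.45, 7.11 and 8.74 at 125 µg/kg, 9.0, 8.87 and 8.65 at 250 µg/kg, 8.65, 8.52, 8.79 and 6.22 at 500 µg/kg, and 8.97 and 8.72 at 1000 µg/kg. The one overlapping treated rWT array, at 6.22, is one of those at odds with the sex label. In INS it read 5.68, 5.61, 5.57, 5.36 and 5.87 on corn oil, then 5.83, 5.85, 5.47 and 5.81 at 125 µg/kg, 6.65, 5.17, 5.76 and 5.80 at 250 µg/kg, 5.58, 5.48, 6.42 and 5.43 at 500 µg/kg, and 5.45, 6.18, 6.32, 5.18 and 5.30 at 1000 µg/kg. Treated and control INS arrays overlapped throughout. The difference was 2.50 ± 0.31 (SE) in DEL, a 5.65-fold rise (limma adjusted p = 6.06e-09), 2.63 ± 0.32 in rWT, a 6.2-fold rise (adjusted p = 3.62e-09), and 0.13 ± 0.31 in INS, not called. Without the 4 arrays the rWT difference was 3.1.

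**Figure D2:**
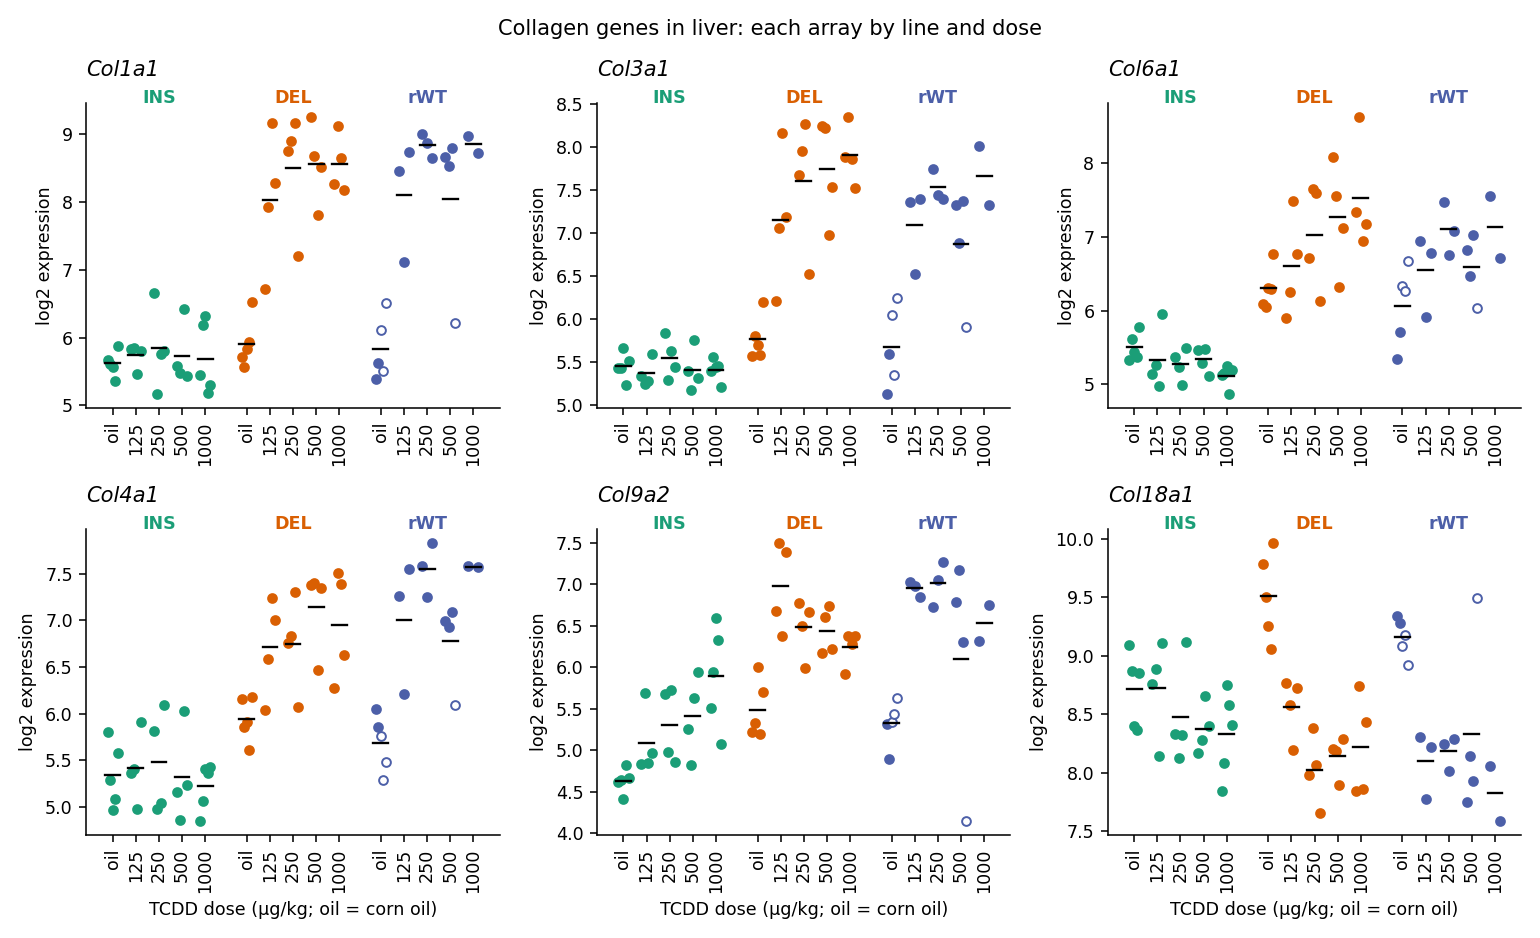
RMA log2 level on each array (points) and group mean (black bars) for 6 collagen genes by TCDD dose in µg/kg, with corn oil (oil) at the left end for each of INS, DEL and rWT; open points mark the 4 rWT arrays at odds with the sex label. Col1a1 lies at 6.72 to 9.26 on treated DEL arrays against 5.56 to 6.52 on corn oil, Col18a1 lies lower after TCDD in DEL, and the INS groups overlap except for most Col9a2 arrays.

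Col1a2 (Entrez 12843) encodes the partner chain that joins 2 alpha 1 chains in the type I helix. In DEL its lowest, median and highest values were 6.32, 8.36 and 8.92 over 16 treated arrays, against 5.61, 5.66, 5.72, 5.84 and 6.49 on corn oil. In rWT they were 6.17, 8.26 and 8.69 over 12 treated arrays, against 5.0, 5.73, 5.85, 5.73 and 6.92. In INS they were 5.19, 5.55 and 6.07 over 17 treated arrays, against 5.46, 5.51, 5.69, 5.56 and 5.72. In DEL 15 of 16 treated arrays exceeded all controls and in rWT 10 of 12 did, and the INS groups overlapped. The difference was 2.30 ± 0.29 in DEL (limma adjusted p = 8.67e-09) and 2.24 ± 0.30 in rWT (adjusted p = 3.32e-08, 2.86 without the 4 arrays), against -0.03 ± 0.29 in INS.

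Col3a1 (Entrez 12825) encodes type III collagen, which forms the reticulin fibres of liver and is laid down early in scarring. In DEL it had 6.21, 7.77 and 8.36 as the lowest, median and highest of 16 treated arrays, against 5.57, 5.80, 5.71, 5.59 and 6.20 on corn oil. In rWT the lowest, median and highest were 5.92, 7.37 and 8.02, against 5.13, 5.60, 6.05, 5.35 and 6.25 on corn oil. In INS they were 5.18, 5.40 and 5.84, against 5.43, 5.44, 5.67, 5.24 and 5.52. The DEL groups did not overlap, by the narrow margin of 6.21 against 6.20, and in rWT and INS they overlapped. The difference was 1.83 ± 0.22 in DEL (3.56-fold, limma adjusted p = 3.78e-09) and 1.62 ± 0.23 in rWT (3.07-fold, adjusted p = 1.34e-07, 2.01 without the 4 arrays), against -0.02 ± 0.22 in INS.

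Of the 11 fibrillar genes, 5 rose and 4 fell in DEL, where 16.7% of all features rose and 17.6% fell. In rWT 5 rose and 3 fell, where 20.3% of all features rose and 20.4% fell. The other fibrillar genes that rose encode type V chains, which nucleate type I fibrils and limit their width. Col5a2 had 5.10, 5.82 and 6.69 as its lowest, median and highest in treated DEL against 4.84, 4.66, 5.13, 4.98 and 4.89 on corn oil, and 4.52, 5.85 and 6.11 in treated rWT against 4.86, 4.42, 4.66, 4.59 and 4.92. Its difference was 0.92 ± 0.21 in DEL (limma adjusted p = 4.25e-04) and 1.02 ± 0.22 in rWT (adjusted p = 1.65e-04, 1.14 without the 4 arrays). In INS it was -0.27 ± 0.21, with 3.89, 4.23 and 5.04 in treated mice against 5.09, 4.13, 5.68, 4.26 and 4.28 on corn oil. The INS controls at 5.09 and 5.68 lay above every treated INS array. Col5a1 moved less, by 0.30 ± 0.09 in DEL (adjusted p = 0.00495) and 0.46 ± 0.09 in rWT (adjusted p = 3.47e-05, 0.35 without the 4 arrays), and its DEL call was lost after quantile scaling across all arrays (0.06, adjusted p = 0.646). The remaining type V chain went the other way: Col5a3 fell by 0.48 ± 0.11 in DEL and by 0.37 ± 0.12 in rWT, and by 0.70 in rWT without the 4 arrays.

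The fibrillar genes that fell are best known outside the liver. Col27a1 encodes a fibrillar chain of cartilage. It had 5.24, 5.52 and 5.76 in treated DEL against 5.84, 6.00, 5.54, 5.99 and 6.36 on corn oil, and 4.79, 5.08 and 5.55 in treated rWT against 5.67, 5.73, 5.19, 5.39 and 5.52. Treated arrays were mostly the lower ones in both lines, with overlap in each. Its difference was -0.45 ± 0.13 in DEL (limma adjusted p = 0.00622) and -0.45 ± 0.14 in rWT (adjusted p = 0.00717, -0.64 without the 4 arrays), and 0.03 ± 0.13 in INS. Leaving out DEL corn oil replicate 5 ended the DEL call. Col2a1, the main cartilage collagen, fell by 0.27 ± 0.08 in DEL and by 0.23 ± 0.09 in rWT (-0.36 without the 4 arrays). Col11a1, its fibril partner, fell by 0.17 ± 0.06 in DEL and differed by -0.08 ± 0.06 in rWT, not called. Col11a2 and Col24a1 passed in neither line.

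Type IV collagen is the network of basement membranes, and its alpha 1 and alpha 2 chains, found in nearly all such membranes, were the ones that rose. Their genes lie head to head on chromosome 8. The 2 start windows are shown because the pair moved together. Each runs from 250 bases before to 50 after a gene's RefSeq start (GRCm38.p6, 5′ to 3′ on the gene's own strand), chr8:11312777-11313076 on the minus strand for Col4a1 and chr8:11312555-11312854 on the plus strand for Col4a2. Capitals mark the 78 bases that the 2 windows share, read on opposite strands.
Col4a1: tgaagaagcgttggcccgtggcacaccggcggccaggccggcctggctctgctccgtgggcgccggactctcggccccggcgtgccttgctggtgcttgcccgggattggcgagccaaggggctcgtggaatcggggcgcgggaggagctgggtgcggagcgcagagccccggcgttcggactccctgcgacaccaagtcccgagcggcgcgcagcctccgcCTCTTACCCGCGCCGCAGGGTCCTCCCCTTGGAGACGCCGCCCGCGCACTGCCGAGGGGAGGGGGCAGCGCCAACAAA
Col4a2: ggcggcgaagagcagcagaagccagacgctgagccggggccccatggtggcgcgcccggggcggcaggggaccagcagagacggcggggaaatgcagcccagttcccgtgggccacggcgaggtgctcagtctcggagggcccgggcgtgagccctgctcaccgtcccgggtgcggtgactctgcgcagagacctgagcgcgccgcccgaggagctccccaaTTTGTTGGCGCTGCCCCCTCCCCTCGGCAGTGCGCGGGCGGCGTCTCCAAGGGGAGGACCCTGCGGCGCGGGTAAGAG

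Col4a1 (Entrez 12826) had 6.04, 6.92 and 7.51 as the lowest, median and highest of the 16 treated DEL arrays, against 6.16, 5.86, 5.91, 5.61 and 6.18 on corn oil. In rWT the lowest, median and highest were 6.09, 7.26 and 7.83, against 6.05, 5.86, 5.76, 5.28 and 5.48. In INS they were 4.85, 5.36 and 6.09, against 5.80, 5.29, 4.96, 5.08 and 5.57. In DEL 14 of 16 treated arrays exceeded all controls, in rWT all 12 did, and the INS groups overlapped. The difference was 0.94 ± 0.22 in DEL (limma adjusted p = 4.54e-04) and 1.54 ± 0.23 in rWT (adjusted p = 2.11e-07, 1.33 without the 4 arrays), against 0.02 ± 0.22 in INS. Col4a2 gave 0.80 ± 0.17 in DEL (adjusted p = 1.08e-04) and 1.32 ± 0.17 in rWT (adjusted p = 1.67e-08, 1.30 without the 4 arrays), against 0.00 ± 0.16 in INS, and 15 of 16 treated DEL arrays and all 12 treated rWT arrays exceeded their controls.

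The other 4 type IV chains have narrower uses, among them the kidney and the lens capsule. Col4a4 fell by 0.22 ± 0.07 in DEL and differed by -0.11 ± 0.07 in rWT, not called. Col4a3, Col4a5 and Col4a6 passed in neither line, with differences of 0.11, 0.01 and -0.24 in DEL and -0.15, -0.04 and -0.27 in rWT. Col4a3 and Col4a4 lie next to each other on chromosome 1, as Col4a5 and Col4a6 do on the X chromosome. The 3 neighbouring type IV pairs thus differed in their calls within one class.

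Type VI collagen links cells to the surrounding fibrils, and its classical trimer is built of the alpha 1, 2 and 3 chains. Col6a1 (Entrez 12833) had 5.90, 7.16 and 8.63 as its lowest, median and highest in treated DEL against 6.09, 6.06, 6.31, 6.30 and 6.77 on corn oil. It had 5.92, 6.80 and 7.56 in treated rWT against 5.34, 5.71, 6.34, 6.27 and 6.67, and 4.87, 5.24 and 5.96 in treated INS against 5.34, 5.61, 5.44, 5.37 and 5.77. In DEL 10 of 16 treated arrays and in rWT 9 of 12 exceeded all controls. The difference was 0.80 ± 0.24 in DEL (limma adjusted p = 0.00771) and 0.78 ± 0.25 in rWT (adjusted p = 0.0118), and it was 1.36 in rWT without the 4 arrays. In INS it was -0.24 ± 0.24, not called.

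Col6a3 rose by 1.24 ± 0.24 in DEL, with 5.84, 7.05 and 7.90 in treated mice against 5.90, 5.45, 5.81, 5.35 and 6.46 on corn oil. In rWT it rose by 1.0 ± 0.25 (1.06 without the 4 arrays), with 5.66, 6.41 and 6.75 against 5.27, 5.52, 5.39, 5.11 and 5.77. The highest controls overlapped the lowest treated arrays in both lines. Col6a2, whose gene neighbours Col6a1 on chromosome 10, rose by 0.74 ± 0.21 in DEL (limma adjusted p = 0.00372) and differed by 0.44 ± 0.22 in rWT (adjusted p = 0.0966). The chains outside the classical trimer did not follow it. Col6a4 fell by 0.29 ± 0.09 in DEL and by 0.33 ± 0.10 in rWT, and Col6a5 and Col6a6 passed in neither.

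FACIT collagens decorate fibrils rather than forming them. Of the 9 measured, 2 rose and 3 fell in DEL, where 16.7% of all features rose and 17.6% fell, and 2 rose and 3 fell in rWT, where 20.3% rose and 20.4% fell. Col12a1 encodes a chain that binds type I fibrils in tissue under tension. It had 4.77, 5.48 and 6.11 in treated DEL against 4.84, 4.83, 4.73, 4.34 and 4.82 on corn oil, and 4.47, 6.16 and 6.44 in treated rWT against 4.49, 4.57, 4.58, 4.46 and 4.77. It had 3.16, 3.42 and 3.75 in treated INS against 3.46, 3.49, 3.50, 3.42 and 3.42. The highest arrays were treated ones in DEL and rWT, and the groups overlapped at the low end. The difference was 0.75 ± 0.17 in DEL (limma adjusted p = 3.53e-04) and 1.37 ± 0.18 in rWT (adjusted p = 9.80e-09, 1.5 without the 4 arrays), against -0.02 ± 0.17 in INS.

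Col9a2 (Entrez 12840) encodes a chain of type IX collagen, which coats the fibrils of cartilage. In INS more of its treated arrays exceeded every control than for any other of the 44 members (16 of 17, where Col4a3 came next with 8). In INS it read 4.62, 4.64, 4.41, 4.82 and 4.67 on corn oil, then 4.83, 5.69, 4.84 and 4.97 at 125 µg/kg, 5.67, 4.98, 5.73 and 4.86 at 250 µg/kg, 5.26, 4.82, 5.63 and 5.95 at 500 µg/kg, and 5.51, 5.94, 6.60, 6.33 and 5.08 at 1000 µg/kg. Of the 17 treated INS arrays, 16 exceeded every INS control. In DEL it read 5.22, 5.33, 6.00, 5.19 and 5.71 on corn oil, then 6.67, 7.49, 6.37 and 7.39 at 125 µg/kg, 6.77, 6.50, 5.99 and 6.67 at 250 µg/kg, 6.17, 6.60, 6.73 and 6.22 at 500 µg/kg, and 5.92, 6.37, 6.29 and 6.37 at 1000 µg/kg. In rWT it read 5.31, 4.90, 5.34, 5.43 and 5.63 on corn oil, then 7.02, 6.98 and 6.85 at 125 µg/kg, 6.72, 7.06 and 7.26 at 250 µg/kg, 6.79, 7.17, 6.31 and 4.15 at 500 µg/kg, and 6.31 and 6.75 at 1000 µg/kg. Treated arrays exceeded all controls in 14 of 16 cases in DEL and 11 of 12 in rWT, where the exception, 4.15, is the treated array at odds with the sex label.

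The average Col9a2 difference was 1.04 ± 0.25 in DEL (2.06-fold, limma adjusted p = 8.16e-04) and 1.33 ± 0.26 in rWT (2.51-fold, adjusted p = 5.13e-05, 1.71 without the 4 arrays). In INS it was 0.79 ± 0.25 with an adjusted p of 0.182 over all features, and it passed only when the 4 rWT arrays, which share the estimate of spread, were left out of the fit (0.79, adjusted p = 0.0239). The other chains of type IX did not rise with it. Col9a1 fell by 0.22 ± 0.08 in DEL and differed by -0.21 ± 0.09 in rWT, not called, and Col9a3 passed in neither line.

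Col14a1, a FACIT collagen that regulates fibril growth, was close to its controls in all lines. It had 7.16, 7.87 and 8.65 in treated INS against 8.31, 7.98, 7.83, 7.37 and 7.88 on corn oil, 7.41, 8.59 and 9.63 in treated DEL against 8.43, 8.67, 8.61, 8.22 and 8.76, and 7.46, 8.08 and 8.64 in treated rWT against 8.18, 8.15, 8.15, 8.39 and 8.42. The groups overlapped in each line. The differences were 0.00 ± 0.22 in INS, 0.14 ± 0.22 in DEL and -0.14 ± 0.23 in rWT (-0.08 without the 4 arrays), none called. Col20a1, a minor FACIT chain, fell by 0.27 ± 0.07 in DEL and by 0.32 ± 0.07 in rWT.

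The short-chain collagens form hexagonal networks, such as that under the corneal endothelium. Col8a1 rose by 0.45 ± 0.17 in DEL (limma adjusted p = 0.0375) and by 1.0 ± 0.18 in rWT (adjusted p = 1.11e-05, 1.47 without the 4 arrays). The DEL call was lost in 8 of the 21 fits that each left out 1 DEL array. Col8a2 fell by 0.37 ± 0.10 in DEL and differed by -0.22 ± 0.10 in rWT, not called. Col10a1, the collagen of growth plate cartilage, passed in neither line, although it differed by -0.51 in rWT without the 4 arrays (adjusted p = 0.00482).

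The multiplexins, types XV and XVIII, are collagens of basement membrane zones whose chains carry sugar side chains. Col18a1 (Entrez 12822) was the strongest fall among the 44. In DEL it read 9.78, 9.51, 9.25, 9.06 and 9.96 on corn oil, then 8.77, 8.58, 8.19 and 8.72 at 125 µg/kg, 7.98, 8.38, 8.06 and 7.65 at 250 µg/kg, 8.21, 8.18, 7.89 and 8.29 at 500 µg/kg, and 7.85, 8.74, 7.86 and 8.43 at 1000 µg/kg. In rWT the lowest, median and highest were 7.59, 8.10 and 9.49, against 9.34, 9.28, 9.09, 9.18 and 8.92 on corn oil. In INS they were 7.85, 8.40 and 9.12, against 9.09, 8.87, 8.40, 8.37 and 8.85. Every treated DEL array lay below every DEL control, 11 of 12 did in rWT, with the array at odds with the sex label at 9.49, and the INS groups overlapped. The difference was -1.27 ± 0.18 in DEL, to 0.413 of the control level (limma adjusted p = 1.99e-07), and -1.05 ± 0.19 in rWT, to 0.482 of it (adjusted p = 1.50e-05, -1.30 without the 4 arrays). In INS it was -0.24 ± 0.18, not called.

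Col15a1, the other multiplexin, passed in rWT alone of the 3 lines, where it fell by 0.52 ± 0.12 (limma adjusted p = 5.52e-04, and -0.46 without the 4 arrays). It had 4.83, 5.20 and 5.59 in treated rWT against 5.75, 5.47, 5.68, 5.82 and 5.72 on corn oil, and 11 of 12 treated arrays lay below all controls. In DEL it had 5.36, 5.99 and 6.26 against 5.91, 5.77, 5.94, 5.66 and 6.23, with overlap, and its difference was 0.03 ± 0.12. The DEL minus rWT difference of these 2 effects was 0.55 ± 0.17 and was not called (limma adjusted p = 0.113). In INS the difference was 0.14 ± 0.12.

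The remaining classes held small falls. Of the 4 transmembrane collagens, which stay anchored in the cell membrane, Col25a1 fell by 0.42 ± 0.09 in DEL and by 0.39 ± 0.10 in rWT (-0.70 without the 4 arrays), and Col23a1 fell by 0.28 ± 0.11 in rWT. Col26a1 fell by 0.30 ± 0.12 in DEL and by 0.39 ± 0.12 in rWT, and Col28a1 fell by 0.38 ± 0.10 in rWT (-0.74 without the 4 arrays). Col16a1 and Col19a1, minor FACIT chains, fell by 0.19 ± 0.07 and 0.29 ± 0.09 in rWT, and Col22a1 fell by 0.25 ± 0.10 in DEL. The DEL calls of Col26a1 and Col22a1 were lost in 12 and 11 of the 21 fits that each left out 1 DEL array. Leaving out the 4 rWT arrays ended the rWT calls of Col16a1, Col19a1 and Col23a1, whose differences were then -0.23, -0.29 and -0.37, and added those of Col7a1 (-0.29, limma adjusted p = 0.0499) and Col10a1. The 13 members that passed in neither line included Col7a1, the anchoring fibril of skin, Col13a1 and Col17a1.

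Separation of whole groups followed a shorter list. In DEL, Col1a1 and Col3a1 had all treated arrays above all controls, as 5.88% of all features did, and Col18a1 had all of them below, as 4.98% did. In rWT, Col4a1 and Col4a2 had all treated arrays above all controls (3.97% of all features) and 0 members had all of them below (2.76%). Without the 4 rWT arrays 11 members lay fully above and 11 fully below, where 15.5% and 17.7% of all features did, with 2 controls left. In INS 0 members separated either way, where 0.18% and 0.0284% of all features did.

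Col1a1, Col3a1 and Col18a1 already differed from corn oil at the lowest dose, and in DEL by less than at each later dose. Col1a1 in DEL differed from corn oil by 2.11 ± 0.41, 2.59, 2.65 and 2.64 at 125, 250, 500 and 1000 µg/kg, and in rWT by 2.27 ± 0.44, 3.01, 2.22 and 3.02. At 125 µg/kg the limma adjusted p was 1.18e-04 in DEL and 8.36e-05 in rWT. Col3a1 in DEL differed by 1.38, 1.83, 1.97 and 2.13, and Col18a1 by -0.95, -1.49, -1.37 and -1.29. A slope on log2 dose among the treated groups passed for 0 of 44 members in each line, where 0.0426% of all features passed in INS, 0% in DEL and 0.0284% in rWT. At an unadjusted p under 0.05 the slopes numbered 4 in INS, 8 in DEL and 1 in rWT, where 6.4%, 10.7% and 3.53% of all features did.

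Col6a1 in DEL had one of the steeper orders, with differences of 0.30, 0.72, 0.97 and 1.22, of which the last 2 were called (limma adjusted p = 0.0168 and 0.00267). Its slope of 0.30 ± 0.11 per doubling of dose did not pass (adjusted p = 0.273). Col9a2 ran in opposite orders in different lines. In INS its differences were 0.45, 0.68, 0.78 and 1.26 ± 0.31, with a slope of 0.25 ± 0.10, and in DEL they were 1.49 ± 0.33, 0.99, 0.94 and 0.75, with a slope of -0.23 ± 0.11. Neither slope passed (adjusted p = 0.641 in INS and 0.448 in DEL). At 1000 µg/kg Col9a2 was the only collagen gene called in INS (adjusted p = 0.0258), where 1.02% of all features were called at that dose.

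The lines were compared through the difference of their average TCDD effects, tested in the same fit. For INS minus DEL, 12 of 44 members passed, where 14.1% of all features did, 10 lower and 2 higher, where 8.68% of all features were lower and 5.43% higher. For INS minus rWT, 14 passed, where 20.9% of all features did, 11 lower and 3 higher, where 12.5% were lower and 8.45% higher. For DEL minus rWT, 0 passed in limma, where 1.11% of all features did. There 5 had an unadjusted p under 0.05, where 12.2% of all features did. Both INS comparisons contain the same INS arrays, so their lists are not independent of each other.

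The 10 members with a lower effect in INS than in DEL were all among those that rose in DEL. The differences were -2.37 ± 0.44 for Col1a1 (limma adjusted p = 1.02e-04), -2.33 ± 0.41 for Col1a2 and -1.85 ± 0.31 for Col3a1 (adjusted p = 3.28e-05). They were -1.21 ± 0.34 for Col6a3, -1.19 ± 0.30 for Col5a2, -1.04 ± 0.34 for Col6a1, -0.93 ± 0.31 for Col4a1, -0.80 ± 0.23 for Col4a2, -0.77 ± 0.24 for Col12a1 and -0.43 ± 0.12 for Col5a1. Col18a1, at 1.03 ± 0.26 (adjusted p = 0.00385), and Col20a1, at 0.28 ± 0.10, had a higher effect in INS, their fall in DEL having no called counterpart there. Against rWT the differences were -2.50 ± 0.45 for Col1a1, -1.52 ± 0.31 for Col4a1, -1.39 ± 0.24 for Col12a1 and -1.12 ± 0.25 for Col8a1, and 0.66 ± 0.17 for Col15a1 and 0.81 ± 0.27 for Col18a1. Col9a2 was not called in either comparison, at -0.25 ± 0.35 against DEL and -0.53 ± 0.36 against rWT.

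**Figure D3:**
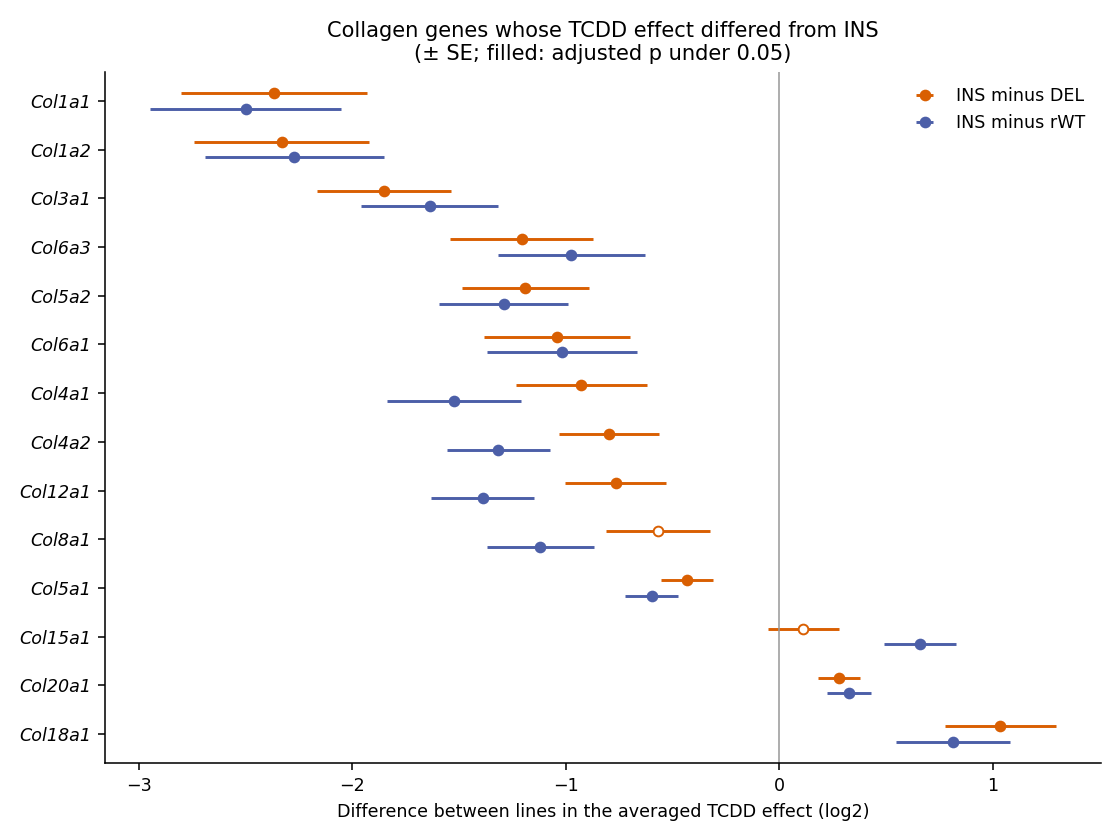
Difference between lines in the average TCDD effect (horizontal axis, log2, bars ± SE of the fit) as INS minus DEL and INS minus rWT, for the 14 collagen genes that passed in at least one of these comparisons; filled points passed adjusted p under 0.05. Col1a1 lies at -2.37 and -2.50 and Col18a1 at 1.03 and 0.81.

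Some of these calls were less stable than others. That of Col20a1 for INS minus DEL was lost in 32 of the 43 fits that each left out 1 array (adjusted p up to 0.139). After quantile scaling across all 60 arrays, Col4a1 (-0.75, limma adjusted p = 0.081), Col4a2 (-0.60, adjusted p = 0.057), Col6a1 (-0.87, adjusted p = 0.067) and Col5a1 (-0.20, adjusted p = 0.261) no longer passed for INS minus DEL. Col6a1 and Col6a3 no longer passed for INS minus rWT (adjusted p = 0.068 and 0.102). Leaving out the 4 rWT arrays ended the Col6a3 call for INS minus rWT (-1.03, adjusted p = 0.085), and a covariate for the sex read from Xist ended that of Col18a1 (0.57, adjusted p = 0.225).

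Control livers differed between lines as well. On corn oil, 39 of 44 collagen genes read lower in INS than in DEL, where 75.5% of all features did, and the median difference of all features was -0.54 against -0.69 for the members. For INS minus rWT, 18 read lower and 1, Col9a1, higher (0.26), where 40.4% of all features were lower and 1.4% higher and the median of all features was -0.29. For DEL minus rWT, 19 read higher and 0 lower, where 34.3% of all features were higher and 1.7% lower and the median was 0.24. The largest were Col12a1 at -1.26 and Col15a1 at -1.02 for INS minus DEL, Col12a1 at -1.12 and Col15a1 at -0.81 for INS minus rWT, and Col6a4 at 0.83 for DEL minus rWT. After quantile scaling, which removes the offset between arrays, 5 members were called for INS minus DEL (2 higher, 3 lower). For INS minus rWT 10 were called (8 higher, 2 lower), and for DEL minus rWT 8 (all higher). The shares of all features called after that scaling are not given, so these counts do not set the members apart from the array. Of the differences named here, Col12a1 still passed in both INS comparisons (-0.65 against DEL and -0.77 against rWT), as did Col6a4 (0.48) and Col9a1 (0.69), and Col15a1 no longer did (-0.43 against DEL and -0.36 against rWT).

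Among treated DEL mice, several genes of fibrils and their companions varied together. Over the 16 treated DEL arrays Col1a1 correlated with Col1a2 at Pearson r = 0.99 and Spearman rho = 0.97, each with a permutation p of 1e-05, the smallest that 100000 permutations can give (adjusted p for r = 6.43e-05 over the 45 relations computed). Leaving out the 2 arrays farthest from the Col1a1 median gave r = 0.98. With Col3a1 the r was 0.95 (0.89 without those arrays), with Col6a3 0.95 (0.96), with Col12a1 0.91 (0.94) and with Col14a1 0.85 (0.89). Col14a1 thus followed Col1a1 from animal to animal in DEL although its average did not differ from controls by a called amount. Col9a2 and Col18a1 did not follow it, with r = -0.41 (permutation p = 0.109) and r = -0.04 (permutation p = 0.881).

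In INS, where neither gene was called, Col1a1 and Col1a2 still correlated over the 17 treated arrays (r = 0.91, rho = 0.87, and 0.89 without the 2 farthest arrays). The other genes followed Col1a1 less closely there. The r was 0.74 with Col3a1 (0.48 without those arrays), 0.66 with Col6a3 (0.49), 0.28 with Col12a1 and 0.32 with Col14a1. Over the 11 treated rWT arrays with male readings the r was 0.99 with Col1a2 and 0.85 with Col3a1, and for Col4a1 it fell to 0.31 without the 2 farthest arrays, so that relation rests on them. These are descriptions over arrays that share a normalisation and pool 4 doses.

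**Figure D4:**
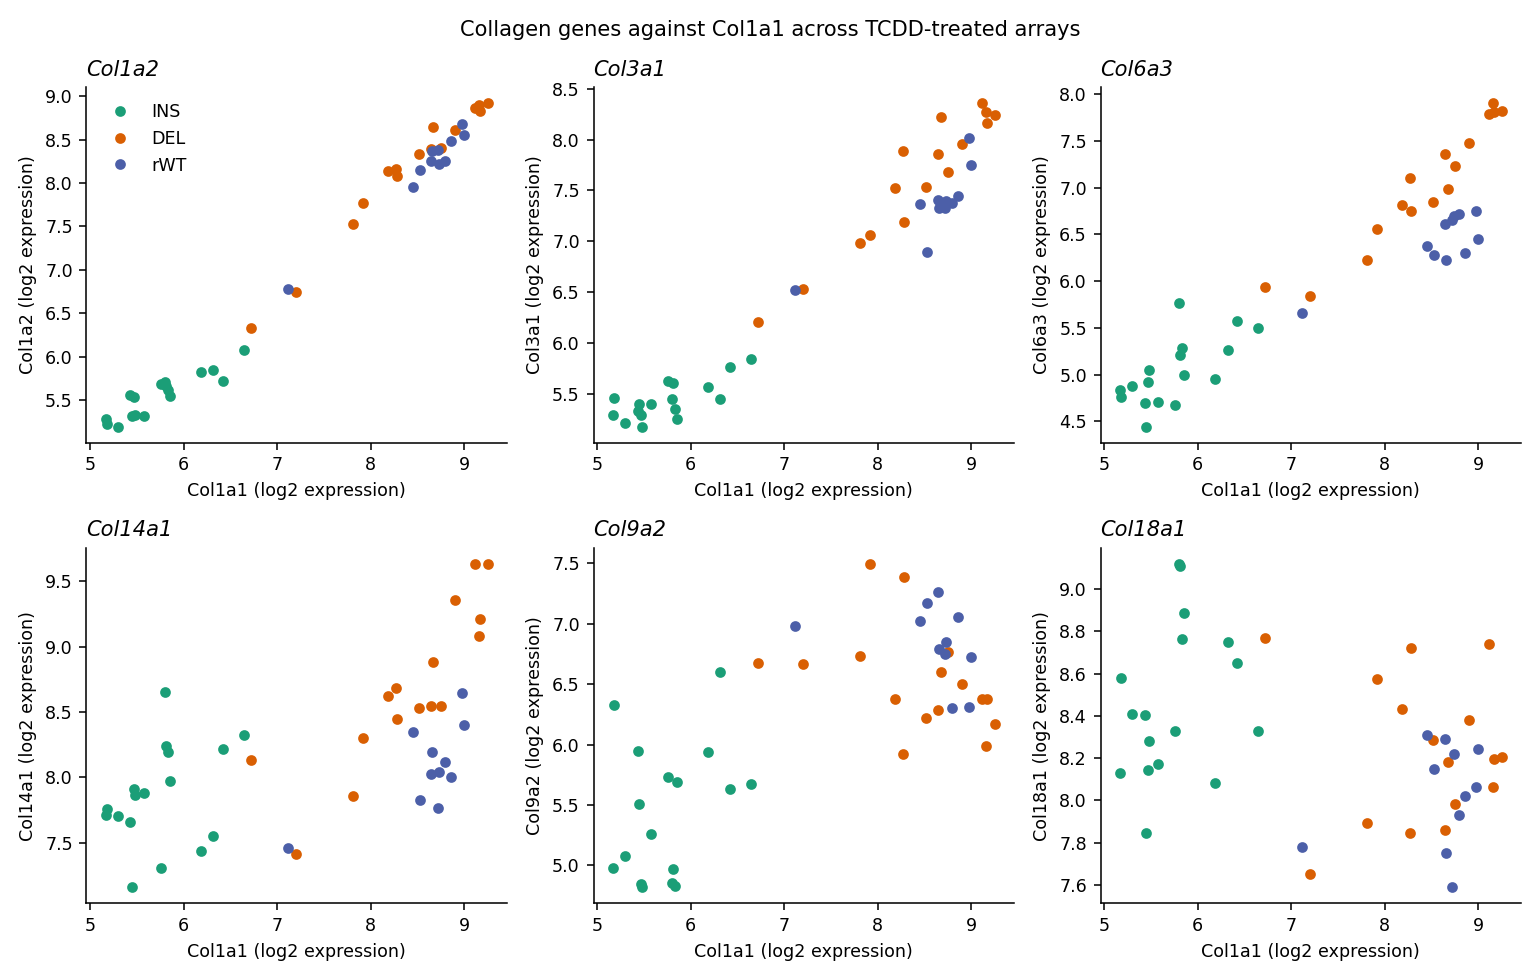
Col1a1 (horizontal axis, RMA log2) against 6 other collagen genes (vertical axes, RMA log2) on the TCDD arrays of INS, DEL and rWT, without the treated rWT array at odds with the sex label. Col1a2 rises with Col1a1 along a line, with r = 0.99 over the DEL arrays, while Col18a1 shows r = -0.04 there.

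Start windows were available for 35 members, 38 windows in all. The window of Col1a2, the largest riser that has one, and one of the 2 windows of Col18a1, the strongest fall, are shown, on chr6:4505368-4505667 (plus strand) and chr10:77166481-77166780 (minus strand), in the same build and orientation as above. Capitals mark CCAAT on either strand, so that ATTGG is the same box read from the other side. The Col18a1 window not shown, chr10:77113656-77113955, holds neither CCAAT nor the other words counted below.
Col1a2: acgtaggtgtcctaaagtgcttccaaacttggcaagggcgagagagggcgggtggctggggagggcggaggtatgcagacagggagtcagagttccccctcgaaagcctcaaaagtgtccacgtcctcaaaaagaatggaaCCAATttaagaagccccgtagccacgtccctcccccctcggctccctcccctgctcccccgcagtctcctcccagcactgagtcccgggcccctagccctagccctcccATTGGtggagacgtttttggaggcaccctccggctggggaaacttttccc
Col18a1: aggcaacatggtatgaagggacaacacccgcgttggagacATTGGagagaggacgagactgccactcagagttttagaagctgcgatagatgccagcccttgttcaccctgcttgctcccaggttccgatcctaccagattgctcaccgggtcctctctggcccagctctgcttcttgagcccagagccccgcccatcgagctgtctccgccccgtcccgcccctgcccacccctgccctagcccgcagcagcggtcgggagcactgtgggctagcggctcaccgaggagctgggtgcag

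Next, 3 short words were counted in every window on both strands, where matches may overlap. GCGTG, the core of the sequence bound by the activated receptor, was in 10 of the 38 member windows (26.3%) and in 32.4% of all 32851 RefSeq windows of that length. The windows of Col4a1 and Col4a2 each hold it, and the 2 printed here for Col1a2 and Col18a1 do not. CCAAT was in 13 (34.2%), against 37.4% of all windows, and GGGCGG, the GC box, in 23 (60.5%), against 35.7%. Of the members that rose in DEL, 10 had a window, and 3 of them held GCGTG, 3 CCAAT and 7 GGGCGG. Of those that fell, 10 had a window, and 2, 6 and 7 held those words. Such matches describe the letters of a window and are not binding sites.

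Genes that make and process collagen changed in the same lines. They were counted in 6 lists of known function with 113 genes in all, chosen with earlier results of these data known. In DEL 16.7% of all features rose and 17.6% fell, and in rWT 20.3% rose and 20.4% fell. In INS 0 of the 113 passed in limma, where 0.568% of all features did. An unadjusted p under 0.05 was found for 8 of them, where 7.5% of all features had one. In the list of collagen biosynthesis and crosslinking, 18 of 28 genes rose and 2 fell in both DEL and rWT, with medians of 0.62 and 0.53, where the medians of all features were -0.05 and -0.07. Lox, the enzyme that crosslinks collagen and elastin, rose by 2.74 ± 0.33 in DEL and 3.76 ± 0.35 in rWT, and its difference was 0.17 in INS. Adamts14, which trims the N-terminal end of procollagen, rose by 2.50 and 3.09, Loxl2, another crosslinking enzyme, by 2.05 and 2.35, and Serpinh1, the collagen chaperone, by 1.59 and 1.47.

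Genes of collagen breakdown and its inhibitors also rose. Of 16, 11 rose and 0 fell in DEL and 10 rose and 1 fell in rWT, with medians of 0.91 and 1.13. Mmp12, macrophage elastase, rose by 5.19 in DEL and 5.28 in rWT, and in INS its difference was 1.96 ± 0.55 (limma adjusted p = 0.0961). Mmp13 and Mmp8, both collagenases, rose by 3.83 and 3.82 in DEL and by 4.69 and 5.79 in rWT. Timp1, an inhibitor of those enzymes, rose by 3.32 in DEL and 3.67 in rWT. Timp2, another inhibitor, rose by 0.82 and 0.74. The gene that fell in rWT was the inhibitor Timp4 (-0.97, and -0.40, not called, without the 4 arrays). Of 11 collagen receptors, 8 rose in DEL and 7 rose and 1 fell in rWT, with medians of 0.49 and 0.74. Among them were Ddr1, a receptor kinase for collagen, higher by 1.14 in both lines, and Lair1, an inhibitory receptor of leukocytes, higher by 1.96 and 1.57.

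Of 18 non-collagen basement membrane genes, 4 rose and 2 fell in DEL, shares near those of all features, and 9 rose and 2 fell in rWT (5 and 2 without the 4 arrays), with medians of 0.20 and 0.52. Nid1, which ties laminin to type IV collagen, rose by 2.44 and 3.01. Of 25 other matrix genes, 12 rose and 1 fell in DEL and 10 rose and 4 fell in rWT, with medians of 0.38 and 0.20. Thbs1 rose by 3.04 and 3.61 and Tnc by 2.52 and 2.73, both glycoproteins of injured tissue. The list of transforming growth factor beta signalling, the main inducer of collagen genes in scarring, has 16 genes. These include Pdgfa, Pdgfb and Pdgfrb, which belong to platelet-derived growth factor signalling and are part of the counts. In this list 10 rose and 1 fell in DEL and 11 rose in rWT, with medians of 0.63 and 1.0. Tgfb2 rose by 2.92 and 3.84, Ccn2 by 1.60 and 2.82 and Tgfb1 by 1.31 and 1.57. An alternative added after the data were seen left out the 4 rWT arrays. The rWT genes higher and lower were then 17 and 1 for biosynthesis and crosslinking and 10 and 0 for breakdown and its inhibitors. They were 8 and 0 for receptors, 9 and 0 for other matrix genes and 11 and 1 for transforming growth factor beta signalling. Of all features, 16.9% were higher and 19.1% lower. The genes named as rising in rWT still rose, for instance Lox by 3.98 and Mmp12 by 6.13.

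**Figure D5:**
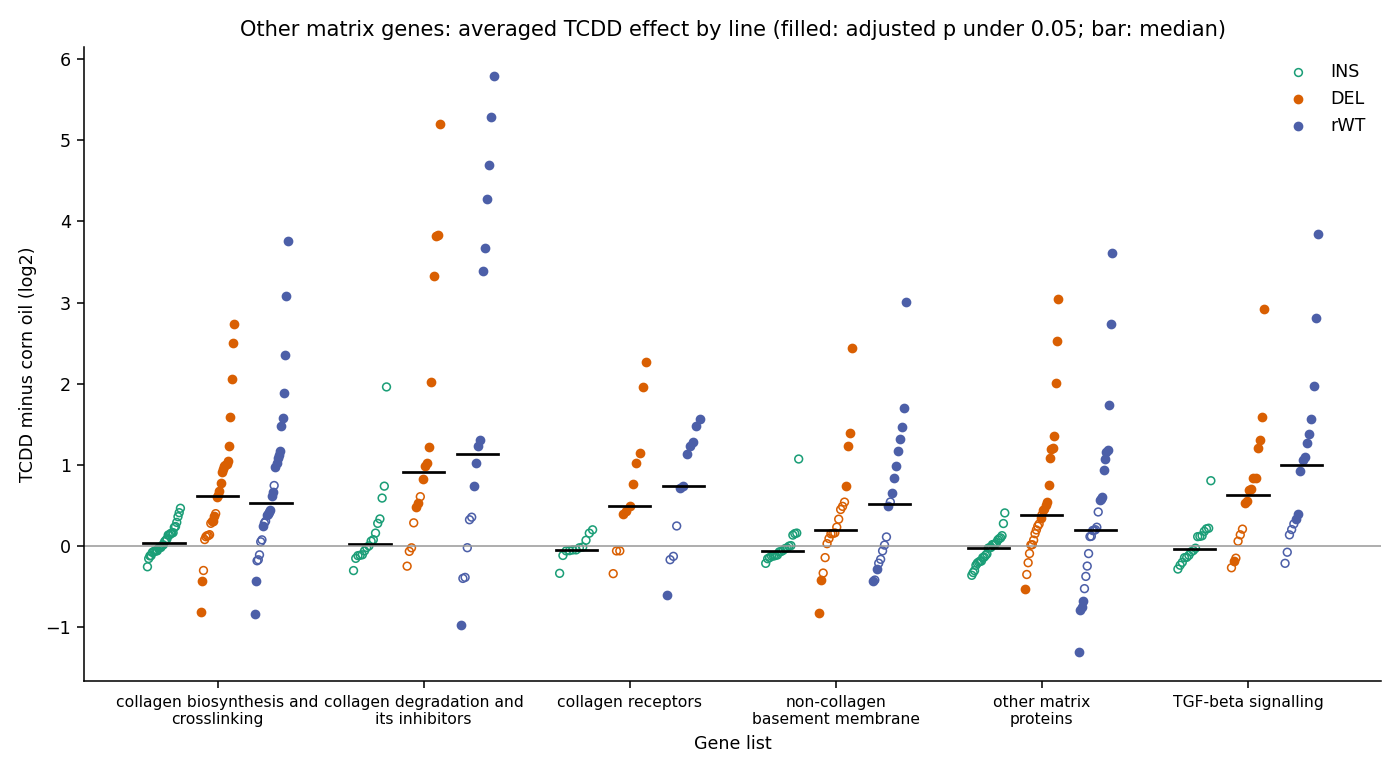
Average TCDD effect (vertical axis, log2 TCDD minus corn oil) of each gene (points) in the 6 lists of matrix and signalling genes, with the list median as a black bar, in INS, DEL and rWT; filled points passed adjusted p under 0.05. List medians in DEL run from 0.20 for non-collagen basement membrane genes to 0.91 for collagen breakdown and its inhibitors. No INS point is filled.

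Marker genes of liver cell types were counted beside the collagens. Some of them are also counted in the 6 lists above. These are Pdgfrb, Dcn, Lum and Ecm1 among the stellate cell markers and Mmp8 and Mmp9 among the neutrophil markers. Of all features, 16.7% rose and 17.6% fell in DEL, and 20.3% rose and 20.4% fell in rWT. In the stellate cell and myofibroblast list, 8 of 14 rose and 1 fell in DEL and 6 rose and 2 fell in rWT. The list's mean level was 8.14 to 9.65 on treated DEL arrays against 8.09 to 8.32 on corn oil, 8.09 to 9.34 against 7.98 to 8.52 in rWT, and 7.40 to 8.06 against 7.52 to 8.06 in INS. Acta2, smooth muscle actin, singled out after its values were seen, rose by 2.54 ± 0.44 in DEL and 2.87 ± 0.46 in rWT (4.0 without the 4 arrays), and differed by -0.13 ± 0.44 in INS. Its list also held genes at odds with it, as Rgs5, a pericyte gene, fell by 1.67 in rWT and Ecm1 fell by 0.52 in DEL.

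Macrophage markers rose for 13 of 13 genes in DEL and 10 in rWT, where 1 fell, and the list's mean was 9.07 to 10.8 against 8.14 to 8.47 in DEL, 8.74 to 10.4 against 7.93 to 8.90 in rWT and 7.76 to 8.74 against 7.84 to 8.08 in INS. Neutrophil markers rose for 8 of 10 genes in both lines and fell for 1 in DEL, with a mean of 5.69 to 7.76 against 4.57 to 4.91 in DEL, 4.92 to 8.31 against 4.17 to 4.72 in rWT and 3.70 to 4.37 against 3.73 to 4.03 in INS. Endothelial markers had 4 of 12 higher and 1 lower in DEL and 5 higher and 1 lower in rWT. Cholangiocyte markers had 1 of 8 higher in DEL and 1 higher and 1 lower in rWT, below the shares of all features. Hepatocyte markers had 3 of 7 lower in DEL and 2 lower in rWT. Without the 4 arrays, the rWT markers higher and lower were 8 and 2 for stellate cells, 11 and 0 for macrophages, 8 and 0 for neutrophils, 3 and 1 for endothelium, 2 and 0 for cholangiocytes and 0 and 3 for hepatocytes. In that fit 16.9% of all features were higher and 19.1% lower. The part of these marker shifts in the collagen results was not tested.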

How the data were processed

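Liver RNA of 60 mice was measured on one-colour microarrays. The authors deposited log2 intensities summarised by RMA to a single feature for each Entrez gene (affy 1.44.0 under R 3.1.2, per the submitters' processing notes). No counts or depth apply, and the number of arrays limits the precision. Each array is a separate animal. The build behind the probe mapping is not named in the labels.

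The values were used without a further filter or scaling. limma 3.58.1 in R 4.3.3 fitted the 15 group means to all 21115 features, and contrasts gave the average TCDD effect per line, each dose, the slope on log2 dose, differences of effects between lines, and corn oil differences. P-values were adjusted by Benjamini-Hochberg within each contrast over all features. The procedure was tested on simulated data. Gene symbols come from the platform annotation updated through Entrez identifiers to RefSeq (GRCm38.p6), with 20405 features having 1 symbol and 710 none.

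The 44 members and the gene lists were chosen with earlier results of these data known. All members may be named. The 15 described in detail are 12 named beforehand by role and the 10 with the largest called effect, which overlap, and from each other list up to 4 called genes with the largest effect in DEL are named. The stellate cell markers Acta2, Rgs5 and Ecm1 were named after their values were seen. Pdgfa, Pdgfb, Pdgfrb, Timp2 and Timp4 are named outside that rule, to show what their lists hold. Dcn, Lum and Mmp9 are named to show which genes the marker lists share with the others. Some genes of the other lists are not reported here. Alternatives covered scaling (quantile, median centring), each line fitted alone, the 4 arrays at odds with the sex label left out or given a covariate, a filter at a mean of 4, the variance model, a block on replicate number, and leaving out each array.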

Additional observations from a re-analysis of the deposited data

Results flagged for a closer look

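Single arrays that stood apart from the rest of their group were looked for among 180 combinations of a gene and a group of 4 or 5 arrays, using Dixon's 95% critical value, and 12 stood apart. Chance alone marks about 1 in 20 groups. Of the 12, 3 belong to one animal, rWT replicate 4 at 500 µg/kg, whose Xist and Eif2s3y went against its label. It was the lowest of its group for Col1a1 at 6.22 (others 8.52 to 8.79), for Col1a2 at 6.17 (others 8.15 to 8.36) and for Col4a1 at 6.09 (others 6.93 to 7.09). Its Cyp1a1 was 13.07, the highest of the treated rWT arrays (others 12.73 to 12.98), its Acta2 was 8.38 and its Timp1 was 4.98, the lowest of the treated rWT arrays for both.

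In INS, Col1a1 was lowest in replicate 3 at 125 µg/kg, at 5.47 (others 5.81 to 5.85), and highest in replicate 3 at 500 µg/kg, at 6.42 (others 5.43 to 5.58). Col9a2 was highest in INS replicate 2 at 125 µg/kg, at 5.69 (others 4.83 to 4.97), and Col12a1 in INS replicate 1 at 250 µg/kg, at 3.75 (others 3.39 to 3.44). In DEL, Col1a2 was highest in corn oil replicate 5, at 6.49 (others 5.61 to 5.84), and Col12a1 lowest in corn oil replicate 4, at 4.34 (others 4.73 to 4.84). Col4a1 was lowest in DEL replicate 3 at 500 µg/kg, at 6.47 (others 7.34 to 7.40), Col14a1 highest in DEL replicate 2 at 1000 µg/kg, at 9.63 (others 8.54 to 8.68), and Col27a1 lowest in DEL replicate 2 at 125 µg/kg, at 5.38 (others 5.55 to 5.59).

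The TCDD effect differed between lines in 26 tests on collagen genes that passed limma's adjusted threshold. For INS minus DEL, 12 passed: Col1a1 at -2.37, Col1a2 at -2.33, Col3a1 at -1.85, Col6a3 at -1.21, Col5a2 at -1.19, Col6a1 at -1.04, Col4a1 at -0.93, Col4a2 at -0.80, Col12a1 at -0.77, Col5a1 at -0.43, Col20a1 at 0.28 and Col18a1 at 1.03. For INS minus rWT, 14 passed: Col1a1 at -2.50, Col1a2 at -2.27, Col3a1 at -1.64, Col4a1 at -1.52, Col12a1 at -1.39, Col4a2 at -1.32, Col5a2 at -1.29, Col8a1 at -1.12, Col6a1 at -1.02, Col6a3 at -0.97, Col5a1 at -0.60, Col20a1 at 0.33, Col15a1 at 0.66 and Col18a1 at 0.81. The cause of these differences was not tested.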

How the results depend on the processing

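No called TCDD effect of a collagen gene, no called difference between lines in it and none of the corn oil differences named changed direction under any alternative. Counts of called collagen genes moved by over 1.5 times in these cases, whose cause was not tested. The shares of all features under these settings are not given here, so the counts do not set the members apart from the array. Median centring gave 41 for TCDD in rWT, 22 for INS minus rWT (12 higher, 10 lower) and 22 for INS minus DEL (14 higher, 8 lower). On corn oil it gave 6 for DEL minus rWT, 8 for INS minus rWT and 2 for INS minus DEL, where quantile scaling gave 8, 10 and 5. Leaving out the 4 rWT arrays at odds with the sex label gave 1 for TCDD in INS and 2 for DEL minus rWT (Col8a1 at -1.02 and Col28a1 at 0.64). Leaving out each array in turn gave 0 to 0 for TCDD in INS, 21 to 28 in DEL and 19 to 31 in rWT, 9 to 14 for INS minus DEL, 12 to 15 for INS minus rWT and 0 to 1 for DEL minus rWT, where the 1 came without DEL replicate 4 at 250 µg/kg. Slopes gave 0 to 0 in INS and rWT and 0 to 2 in DEL, where the 2 came without DEL replicate 3 at 125 µg/kg. Corn oil differences gave 35 to 39 for INS minus DEL, 16 to 20 for INS minus rWT and 17 to 21 for DEL minus rWT. Among described genes, Col4a1 for INS minus DEL lost its call in 5 of these fits, Col6a1 in 4 Col12a1 in 1 (without DEL corn oil replicate 4) and Col20a1 in 32, and for INS minus rWT Col6a3 lost it in 8, Col6a1 in 5 and Col18a1 in 2 (without INS corn oil replicates 3 or 4).

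Replicate numbers paired the arrays weakly, if at all. Deviations of 108 same-numbered pairs had a median correlation of 0.076 (-0.59 to 0.49), against -0.024 for 374 other pairs. Of 60 arrays, 21 correlated best with their own number. With the replicate block, the counts were 0 in INS, 24 in DEL and 24 in rWT for TCDD, 0 for each slope, 12 for INS minus DEL, 15 for INS minus rWT, 0 for DEL minus rWT, and 39, 19 and 19 for the corn oil differences. The 2 rWT arrays at 1000 µg/kg and the 3 at each of the lowest doses give the widest errors.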

Other observations

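Neighbouring collagen genes did not always carry the same call. Of the 44 members, 15 lie in 8 pairs with no protein-coding gene between them in RefSeq (GRCm38.p6). Col4a1 and Col4a2 on chromosome 8 rose in both DEL and rWT, and so did Col3a1 and Col5a2 on chromosome 1. Col6a1 and Col6a2 on chromosome 10 both rose in DEL. Col9a1 and Col19a1 on chromosome 1 had split calls, with Col9a1 falling in DEL and Col19a1 in rWT, and of Col4a3 and Col4a4 on chromosome 1 Col4a4 alone passed, falling in DEL. Col4a5 and Col4a6 on the X chromosome passed in neither line. On chromosome 9 Col6a4 fell in both lines, and its neighbours Col6a5 and Col6a6 passed in neither.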
